A study of Rattus norvegicus with 6 samples.

Results

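A set of 10 genes of the smooth muscle contractile apparatus was followed in the ovaries of neonatal Wistar rats. They were the smooth muscle actins Acta2 and Actg2, the myosin chains Myh11 and Myl9, the actin-associated proteins Cnn1, Tagln, Smtn and Lmod1, the intermediate filament Des, and the coactivator Myocd. The genes were chosen by name, and each probe was assigned through its RefSeq accession. All 10 of 10 genes had a probe, with 14 of the 30367 non-control probes of the array and 10 of its 15154 named genes. The study asked how an immune challenge shortly after birth changes gene expression in the ovary. Female pups were injected intraperitoneally with 0.05 mg/kg LPS from Salmonella enterica, or with as much saline, at PND (postnatal day) 3 and again at PND 5, and whole ovaries were collected on PND 7. LPS (lipopolysaccharide), which gram-negative bacteria carry on their surface, is sensed by Toll-like receptor 4. RNA was measured on 3 single-colour Agilent arrays for each treatment, and the methods state that the ovarian tissue came from 5 animals per treatment group, drawn from 2 litters for each. Which animals or litters stand behind each array was not given in the sources used here, so the p-values measure only the spread between these 3 and 3 arrays.

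Smooth muscle cells shorten when myosin II filaments pull on actin filaments. Contraction begins when calcium and calmodulin activate myosin light chain kinase, which phosphorylates the regulatory light chain, while calponin, caldesmon, transgelin and smoothelin bind the thin filament and intermediate filaments carry the tension through the cell. Most of these genes share regulatory elements, the CArG boxes, that bind serum response factor (Srf), and myocardin is the coactivator that works with Srf in smooth muscle. In the ovary such cells surround the blood vessels and later form the outer theca of growing follicles, and they are abundant in the adjoining oviduct, uterine horn and ligaments.

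Each value given here is a log2 signal from which the 75th percentile of its array was subtracted, so that 0 is the 75th percentile, and a difference of 1 is 2-fold. Levels of different genes are not set against each other, since each probe has its own brightness. The arrays held 62976 spots each, of which from 66.3 to 76.0% of the non-control spots were well above background and 0 were saturated. Germ cell and granulosa cell transcripts were present as the label of ovary requires, with 9 of 9 measured oocyte markers and 8 of 8 measured granulosa cell markers detected. The saline arrays 2 and 3 stood apart from the other arrays in transcripts of the adrenal gland, a neighbouring organ. The mean level of 10 adrenal cortex markers was 3.79 and 3.91 on these arrays and lay from -3.34 to -2.86 on the other 4, and that of 10 adrenal medulla markers was 2.43 and 1.56 against -3.83 to -3.14. Cyp11b1, the last enzyme of glucocorticoid synthesis, was at 5.62 and 6.05 on these arrays and near background on the others. Over all probes 513 of 30367, or 1.69%, met the study's criterion, a difference of 2-fold or more with an unadjusted p below 0.05, of which 186 were higher and 327 lower after LPS, and 0 passed an adjusted p of 0.05 with limma, where the lowest adjusted p was 0.271. Without saline array 1 alone 290 probes passed it, and the count at the study's criterion ran from 250 to 1131 over the arrays left out in turn. Dim probes, 8023 that no array measured well above background, were lower after LPS in 86.6% of cases, with a median of -0.57, so that low signals were not centred on 0.

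No smooth muscle gene with a clear signal on all 6 arrays had a 95% interval of its difference that left out 0, where a clear signal means well above background. The mean after LPS was above the saline mean at 10 of 10 genes, by 0.025 to 1.21 with a median of 0.42, or 0.38 with Lmod1 at its bound, compared with a median of -0.039 over all probes and 0.019 over the 17585 with a clear signal on all arrays, of which 53.6% were higher. The median was 0.43 over 9 oocyte markers, with 9 higher after LPS, and 0.27 over 8 granulosa cell markers, with 6 higher and 2 lower. Lmod1, Myocd and Smtn turned to the other side without background correction. In the limma fit 0 of 10 genes passed an adjusted p of 0.05, and 1 of 10 passed an unadjusted one. The unadjusted threshold was passed by 16.5% of all probes and by 4.08% of those with a clear signal on all arrays. A per-gene analysis of variance, which the methods name for their data in general, gave 0 genes at that unadjusted threshold. The 1 gene, Lmod1, also met the 2-fold criterion, and it was the only one with groups that did not overlap, against 1.69% and 23.4% of all probes for the 2 criteria. It had a clear signal on 0 of the saline arrays. In whole ovary RNA a change in the number of smooth muscle cells and a change in RNA per cell cannot be told apart.

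Acta2, the smooth muscle alpha-actin, is the thin filament actin of vascular muscle and of theca cells. Its signal was 3.45, 3.64 and 3.73 on the LPS arrays 1, 2 and 3, and 3.80, 3.48 and 2.64 on the saline arrays 1, 2 and 3. The LPS arrays lay close together, within the range of the saline arrays, of which array 3 was the lowest of all. The means were 3.61 ± 0.14 and 3.31 ± 0.60 (SD, n = 3 each), a difference of 0.30 (SE 0.31, limma adjusted p = 0.801), and its 95% interval ran from a 0.732-fold to a 2.07-fold ratio. Without saline array 3 the difference was -0.034, and without both saline arrays that carried adrenal transcripts it was -0.20.

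The Acta2 promoter is shown because it was the only one of the 5 member promoters on hand that held a CArG-type box. RefSeq windows from 250 bases before to 50 after the start site on GRCr8 were on hand for Acta2, Actg2, Cnn1, Des and Smtn, while Tagln, Myh11, Myl9, Lmod1 and Myocd are named only. The exact CArG box, which reads as the same kind of element on both strands, was in 0 of the 5 windows and in 1.64% of all 33469 windows. A CArG-like box, in which 1 of the 6 central A or T bases is replaced by C or G, was counted apart from it. A box of either kind was in 1 of 5 member windows against 9.42% of all windows, and at least 2 boxes were in 1 of 5 against 0.846%. In the Acta2 stretch chr1:241172558-241172657 of GRCr8, on the minus strand and written 5′ to 3′ along the gene, the capitals mark both CArG-like boxes, which begin 134 and 84 bases before the start site. A match of letters is a description and not a measured binding site.
Acta2 promoter: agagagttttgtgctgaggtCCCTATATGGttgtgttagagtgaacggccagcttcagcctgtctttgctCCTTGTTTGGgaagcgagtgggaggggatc

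Actg2, the gamma-actin of visceral smooth muscle such as gut, bladder and uterus, was measured by a pair of probes. The brighter read 2.75, 3.10 and 3.55 on LPS arrays 1 to 3 and 2.90, 3.00 and 2.19 on saline arrays 1 to 3. LPS array 3 was the highest and saline array 3 the lowest, with the other 4 arrays between 2.75 and 3.10. The difference was 0.44 (SE 0.30, limma adjusted p = 0.602), and the dimmer probe, at 2.58, 2.85 and 3.40 after LPS and 2.77, 2.76 and 1.88 after saline, gave 0.48 (adjusted p = 0.601). Both probes had the same highest and lowest array, and neither separated the treatments.

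Among the myosins, Myh11 encodes the smooth muscle heavy chain, the most specific marker of differentiated smooth muscle. Its brighter probe read 0.91, 1.72 and 2.31 on LPS arrays 1 to 3 and 1.22, 1.88 and 0.58 on saline arrays 1 to 3. The treatments overlapped over most of their range, and the spread within each, 0.71 and 0.65 (SD, n = 3), exceeded the difference of 0.42 (SE 0.45, limma adjusted p = 0.811). Its other probe read -0.73, 0.18 and 1.04 after LPS and -0.16, 0.39 and -0.75 after saline, a difference of 0.34 (adjusted p = 0.888). Both probes placed LPS array 3 highest, while LPS array 1 lay below the saline mean. The difference of the brighter probe was 0.79 without LPS array 1, 0.087 without LPS array 3 and 0.098 without saline array 3.

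Myl9, the regulatory light chain whose phosphorylation starts contraction, had a different spread. It read 3.61, 4.48 and 4.81 on LPS arrays 1 to 3, and 4.08, 3.86 and 3.92 on saline arrays 1 to 3. LPS array 1 was the lowest of all 6 arrays and the other LPS arrays were the highest pair, while the saline arrays held together. The means were 4.30 ± 0.62 and 3.95 ± 0.11 (SD, n = 3 each), with a difference of 0.35 (SE 0.32, limma adjusted p = 0.749). Without LPS array 1 the difference was 0.70 at an adjusted p of 0.196, and without LPS array 3 it was 0.092.

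**Figure D1:**
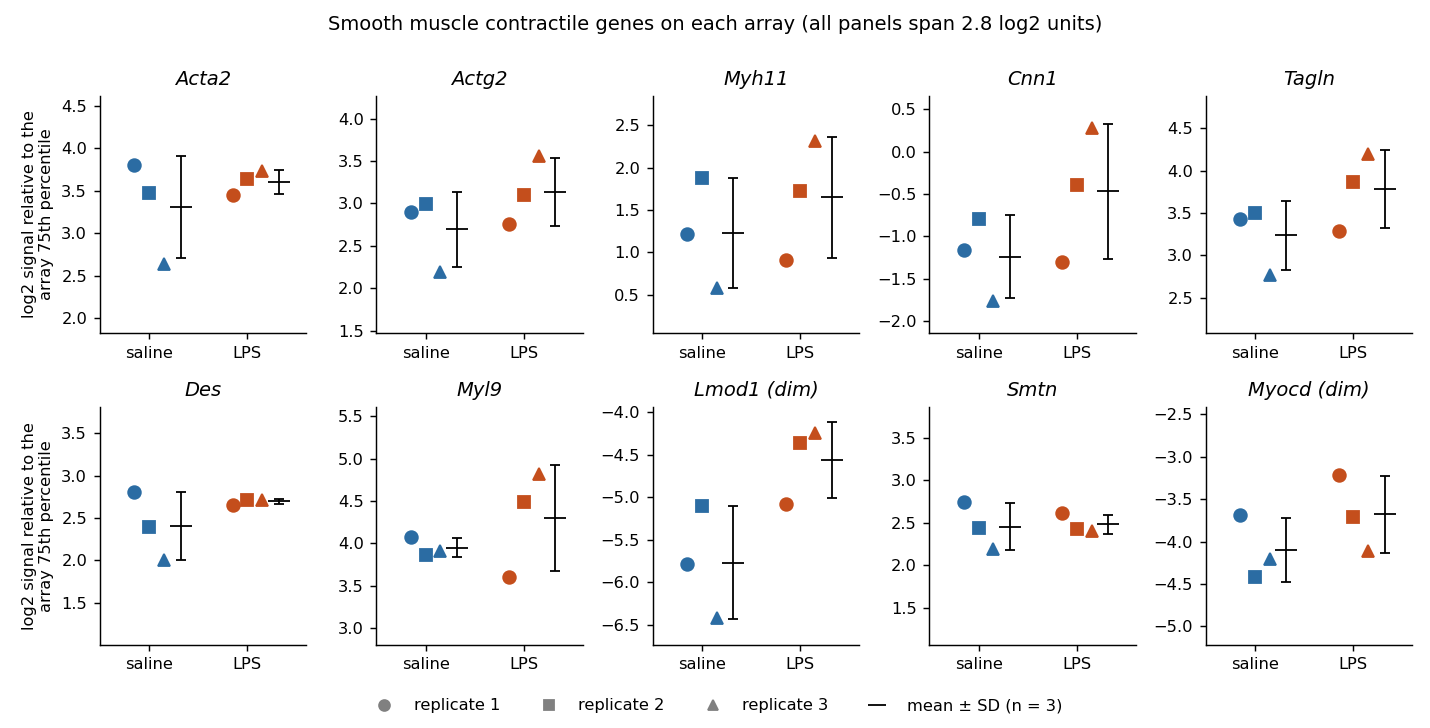
Log2 signal above the 75th percentile of each array (vertical axis, all panels of equal span) for the 10 genes in the saline group (blue) and the LPS group (orange), with the mean and SD of the 3 arrays as a line and bar. Saline array 3 (blue triangle) was the lowest array at 8 of the 10 genes, and the treatments overlapped in every panel except that of Lmod1, which, like Myocd, is marked dim because it lacked a clear signal on some arrays.

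Cnn1, calponin 1, binds actin and restrains the myosin ATPase, and it showed the widest difference among the genes with a clear signal on all arrays. It read -1.30, -0.39 and 0.28 on LPS arrays 1 to 3, against -1.15, -0.80 and -1.76 on saline arrays 1 to 3. LPS arrays 2 and 3 were above every saline array, and LPS array 1 was below saline arrays 1 and 2. The difference was 0.77 (SE 0.44, limma adjusted p = 0.480, exact permutation p = 0.3), and its 95% interval ran from 0.820-fold to 3.55-fold. Without LPS array 1 it was 1.18, past 2-fold at an unadjusted p, with an adjusted p of 0.196, while it was 0.39 without LPS array 3 and 0.51 without saline array 3.

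Tagln, transgelin or SM22 alpha, is an early and abundant actin-binding protein of smooth muscle. Its signal was 3.29, 3.87 and 4.19 on LPS arrays 1 to 3 and 3.43, 3.51 and 2.77 on saline arrays 1 to 3. The arrays fell in the order of Cnn1 at both ends, with LPS array 1 again inside the saline range. The difference was 0.55 (SE 0.31, limma adjusted p = 0.472, exact permutation p = 0.3), and without LPS array 1 it was 0.79 (adjusted p = 0.200). Without LPS array 3 it was 0.34 and without saline array 3 it was 0.31.

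Smtn, smoothelin, is an actin-binding protein of contractile smooth muscle, and it moved least. It read 2.62, 2.42 and 2.40 on LPS arrays 1 to 3 and 2.75, 2.44 and 2.19 on saline arrays 1 to 3, so that all LPS arrays lay inside the saline range. The difference was 0.025 (SE 0.20, limma adjusted p = 0.994), and its 95% interval, from 0.730-fold to 1.42-fold, left out a 2-fold change in either direction. The other probe gave 0.011 (adjusted p = 0.997).

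Lmod1, leiomodin 1, nucleates actin filaments in smooth muscle. Its brighter probe read -5.08, -4.36 and -4.25 on LPS arrays 1 to 3 and -5.78, -5.10 and -6.42 on saline arrays 1 to 3. All LPS values were above all saline values, but LPS array 1 and saline array 2 were nearly equal, and the signal was clear on 2 LPS arrays and 0 saline arrays. The fitted difference was 1.21 (SE 0.39, unadjusted p = 0.018, limma adjusted p = 0.271), and the exact permutation p was 0.1, the smallest that 3 against 3 arrays can give. No fold is given, since the bound against the background level was under 1. The other probe had a clear signal on 0 arrays and was lower after LPS, from -7.61 to -7.13 against -6.77 to -6.40, as were 86.6% of the dim probes, so it gives no direction. With normexp background correction the brighter probe differed by 0.045, and with none by -0.019.

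Des, desmin, forms the intermediate filaments of all muscle types. Its signal was 2.66, 2.71 and 2.72 on LPS arrays 1 to 3 and 2.81, 2.40 and 2.01 on saline arrays 1 to 3. The LPS arrays were nearly equal, with an SD of 0.03 against 0.40 in the saline group, and saline array 1 was above them. The difference was 0.29 (SE 0.23, limma adjusted p = 0.684), with a 95% interval from 0.833-fold to 1.79-fold, and it was -0.11 without saline arrays 2 and 3.

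Myocd, the coactivator of Srf, was dim. It read -3.21, -3.71 and -4.11 on LPS arrays 1 to 3 and -3.68, -4.41 and -4.20 on saline arrays 1 to 3, with a clear signal on 3 LPS arrays and 1 saline array. LPS array 1, the second lowest in the median of the smooth muscle genes, was the highest for Myocd. The difference was 0.42 (SE 0.30, limma adjusted p = 0.627).

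**Figure D2:**
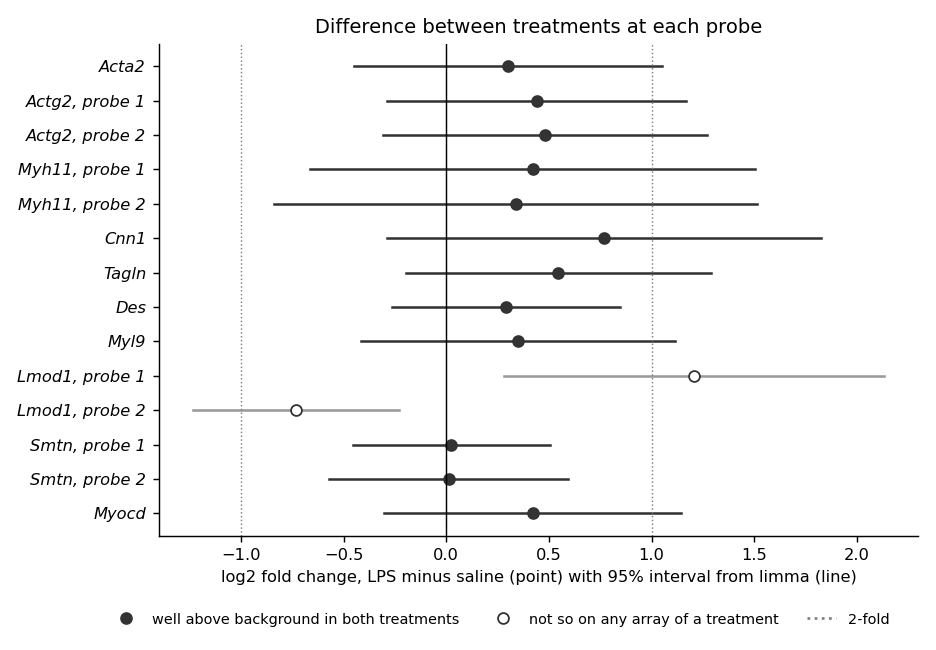
Log2 fold change of LPS over saline (horizontal axis, points) with its 95% interval from limma (lines) for each of the 14 probes, with dotted lines at 2-fold. Only the 2 probes of Lmod1 (open points), which had no clear signal in at least 1 treatment, had intervals that left out 0, and they lay on opposite sides of it.

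The genes shared much of their order of arrays. Saline array 3 was the lowest array at 8 of 10 genes and at 7 of the 8 with a clear signal on all arrays, while it was the lowest at 18.2% of 9679 named genes of that kind. LPS array 3 was the highest at 6 of 10 genes and at 5 of the 8, against 17.4% of the named genes. The exceptions were Acta2, Des and Smtn, which were highest on saline array 1, and Myocd, which was highest on LPS array 1. Relative to the saline mean of each gene, the median over the 10 genes was 0.10, 0.45 and 0.86 on LPS arrays 1, 2 and 3, and 0.20, 0.22 and -0.48 on saline arrays 1, 2 and 3. LPS array 1 was thus below saline arrays 1 and 2. The median difference between treatments was 0.66 without LPS array 1 and 0.25 without saline array 3. Without saline arrays 2 and 3, which carried the adrenal transcripts, it was 0.23, with 7 of 10 genes higher.

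The position of the arrays on the slide also moved with treatment. LPS array 1 and all 3 saline arrays shared 1 row of the slide, and LPS arrays 2 and 3 were in the other row. Within the shared row LPS array 1 exceeded the saline mean by a median of 0.10, with 7 of 10 genes higher, and the range ran from -0.35 at Myl9 to 0.89 at Myocd. LPS arrays 2 and 3 lay further above the saline mean, by a median of 0.45 and 0.86, and for them row and treatment cannot be told apart. Saline array 3, in the shared row, lowered that mean, lying below it by a median of -0.48.

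Each gene was then centred on its own mean over the 6 arrays, and the mean profile of the 8 genes with a clear signal was -0.20, 0.24 and 0.55 on LPS arrays 1 to 3 and 0.028, 0.018 and -0.64 on saline arrays 1 to 3. Actg2 and Tagln followed this profile most closely, with root mean square distances of 0.068 and 0.094. Acta2, Des, Myl9, Myh11 and Cnn1 were at 0.206 to 0.325. Smtn at 0.359, Lmod1 at 0.473 and Myocd at 0.550 were the farthest, and for Smtn this reflects a flat profile, with a range of 0.56 over the arrays against 2.05 for Cnn1.

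Of 9671 other named genes, the 5 nearest to that mean profile were Igsf10 at 0.039, the heat shock chaperone Hspa2 at 0.045, the orphan G protein-coupled receptor Mrgprf at 0.076, the neurotrophin receptor Ntrk2 at 0.077 and Mylk at 0.096, compared with a median distance of 0.417. These distances are over 6 arrays that are shared by all genes, and the 5 genes were picked for them. Mylk is the kinase that phosphorylates Myl9. Their differences between treatments, from 0.37 to 0.43, had adjusted p-values of 0.534 to 0.665 in limma.

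**Figure D3:**
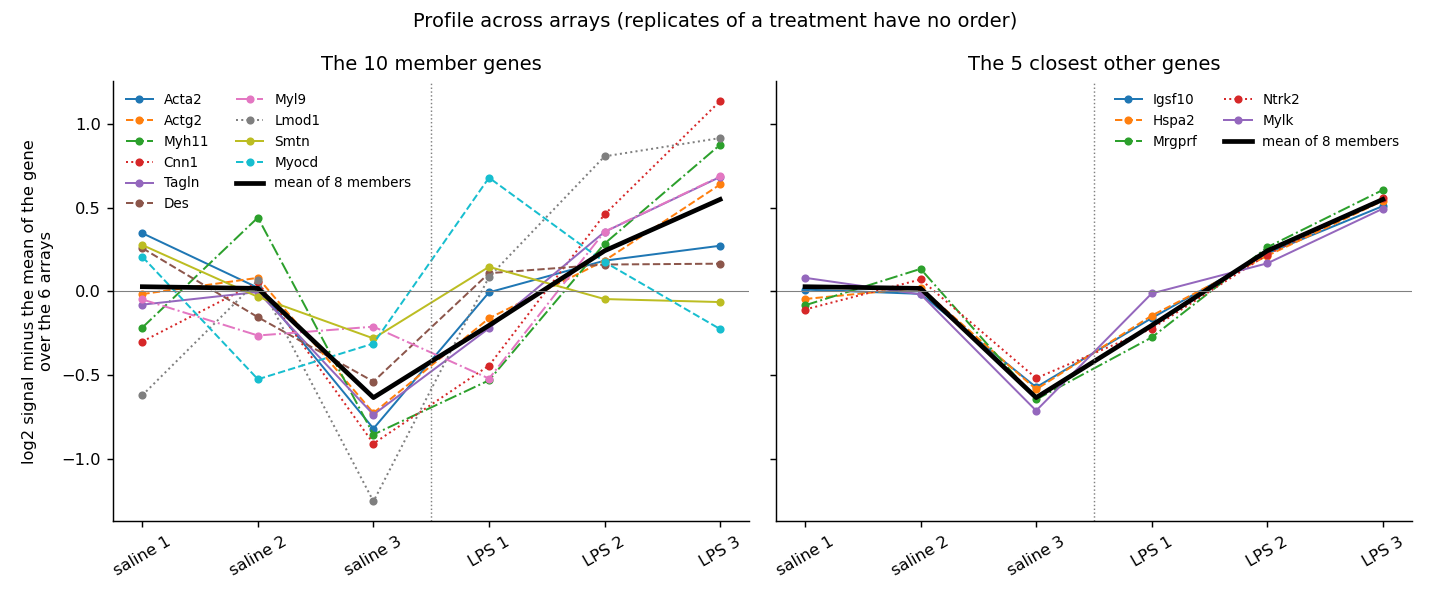
Log2 signal minus the mean of each gene over the 6 arrays (vertical axis) on each array (horizontal axis, replicates in no order) for the 10 smooth muscle genes (left) and the 5 other genes with the nearest profiles (right), with the mean of the 8 genes of clear signal in black. The black line was at -0.64 on saline array 3 and 0.55 on LPS array 3, while Myocd and Smtn did not follow it.

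Other genes of the contractile programme were read from lists. None of 69 measured genes of actomyosin and cytoskeleton, of Srf and its cofactors, and of contraction signaling met the 2-fold criterion, and their median was 0.12. Of 26 actomyosin and cytoskeleton genes 19 were higher after LPS with a median of 0.16. Of 19 Srf and myocardin regulators 11 were, with a median of 0.038, and of 24 signaling and channel genes 14 were, with a median of 0.056. No gene of these lists passed an adjusted p of 0.05 in limma, while 4 were higher and 3 lower at an unadjusted one. That unadjusted threshold was passed by 16.5% of all probes and by 4.08% of those with a clear signal on all arrays. Those higher were Cald1, the tropomyosin Tpm4 and the transcription factors Klf4 and Hey2. Hey2 had a clear signal on 3 LPS arrays and 1 saline array. Those lower, Ppp1r12b, Smad3 and Tbx20, had a clear signal on 0 arrays. Apart from Cald1 the genes of both directions are named after their values were seen.

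Mylk read 2.65, 2.83 and 3.16 on LPS arrays 1 to 3 and 2.74, 2.64 and 1.95 on saline arrays 1 to 3, a difference of 0.43 (limma adjusted p = 0.534). Tpm2, beta-tropomyosin of the thin filament, had the same overlap of treatments, with a difference of 0.35 (adjusted p = 0.787). Cald1, caldesmon, a thin filament inhibitor that is also found in nonmuscle cells, did separate the treatments. It read 0.86, 1.07 and 1.42 on LPS arrays 1 to 3 against 0.42, 0.62 and 0.68 on saline arrays 1 to 3, with a difference of 0.54 (SE 0.20, adjusted p = 0.282). Of the 26 actomyosin and cytoskeleton genes 4 higher and 3 lower ones did not overlap, beside 23.4% of all probes. Over probes with a clear signal on all arrays, as 24 of the 26 genes had, the share was 11.4%. Srf itself was level, at 1.55, 1.75 and 1.86 after LPS and 1.65, 1.76 and 1.64 after saline (difference 0.037, SE 0.17, adjusted p = 0.985).

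Cell types that hold or accompany smooth muscle were read from marker lists. The pericyte marker Pdgfrb differed by 0.092 and the endothelial marker Pecam1 by -0.11, and the medians were 0.0082 over 9 pericyte markers and -0.13 over 10 endothelial markers. None of these 19 genes met the 2-fold criterion. The median over 14 fibroblast and stroma markers was 0.18, with 8 higher and 1 past the 2-fold criterion, the mesenchymal transcription factor Tcf21 (1.08, SE 0.24, limma adjusted p = 0.271). The mean level of the stroma list was 2.37, 2.65 and 2.70 on LPS arrays 1 to 3 and 2.49, 2.41 and 2.21 on saline arrays 1 to 3, so that LPS array 3 was the highest and saline array 3 the lowest, as for the smooth muscle genes. Its part in their differences was not tested.

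Muscle of the reproductive tract could enter with the ovary. All 10 measured oviduct and uterus markers were higher after LPS, with a median of 0.51, and 7 had a clear signal on all arrays. Of the 10, 2 passed an unadjusted p of 0.05 in limma, as did 16.5% of all probes, and 0 passed an adjusted one. Their mean level was -0.14, -1.31 and -1.48 on LPS arrays 1 to 3 and -0.97, -2.13 and -1.96 on saline arrays 1 to 3. The highest array was LPS array 1, the second lowest in the median of the contractile genes, so the order of arrays was not that of the smooth muscle genes. Hoxa11, a homeobox gene of the uterus, was at -2.06, -4.29 and -4.61 after LPS with a clear signal on 0 saline arrays. Under the reported processing it was at least 1.73-fold higher after LPS (limma adjusted p = 0.271), a log2 bound of 0.79. Its fitted difference was 2.45, and ran from 1.65 without LPS array 1 to 2.93 without LPS array 3. With normexp background correction the difference was 0.82. With none it was 0.45, which is below the bound, so the bound depends on the background correction. The part of the tract in the differences of the smooth muscle genes was not tested.

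Of 20 measured striated muscle markers 13 were detected, 9 of them on all arrays. After LPS 10 were higher and 10 lower, with a median of -0.016 over all 20 and 0.023 over the 13 detected. The skeletal alpha-actin Acta1 lay from -3.60 to -2.17, and Ckm, the muscle creatine kinase, was clear on 3 LPS arrays and 1 saline array. The 1 marker that met the 2-fold criterion, Myom2 (-2.39, limma adjusted p = 0.271), was at -0.72 and -0.42 on saline arrays 2 and 3 and at -4.16 to -3.60 on the other 4 arrays, like the adrenal medulla genes Pnmt, Th and Ddc. Of 6 red blood cell markers 1, Slc4a1, and of 14 macrophage markers 1, the mannose receptor Mrc1, met it as well. Slc4a1 differed by -1.17 (limma adjusted p = 0.283). Mrc1, with a clear signal on 0 saline arrays, was at least 2.08-fold higher after LPS under the reported processing (limma adjusted p = 0.271). Without background correction 211 probes met the 2-fold criterion, of which 0 were higher after LPS. Mrc1 thus did not meet it there as a higher gene, and its call depends on the background correction. The part of these cells in the differences of the smooth muscle genes was not tested.

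**Figure D4:**
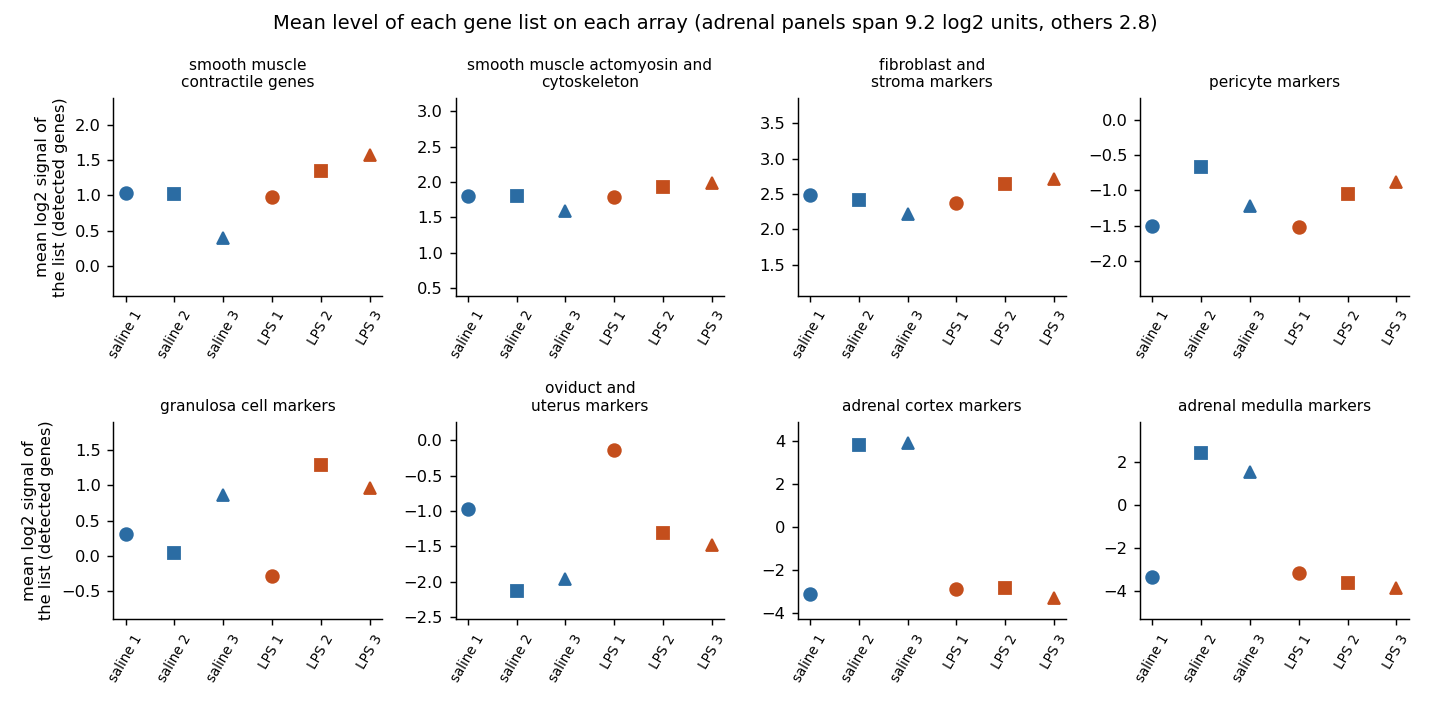
Mean log2 signal of the detected genes of 8 lists (vertical axis) on each array (horizontal axis), for saline (blue) and LPS (orange). The adrenal panels have a wider span than the others. The smooth muscle list was lowest on saline array 3, at 0.39, and highest on LPS array 3, at 1.56, while the adrenal lists were high on saline arrays 2 and 3 and the oviduct and uterus list was highest on LPS array 1.

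The median difference stayed above 0 under each of the 20 alternatives, from 0.10 with the slide row as a block to 0.80 without normalization between arrays. In the latter the median over all probes itself moved to 0.34. The slide row as a block compares only LPS array 1 with the saline mean, since the other row held no saline array. Alternatives that change only the test, the replicate block, and the filter on dim probes, which all 10 genes passed, cannot move the median difference.

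**Figure D5:**
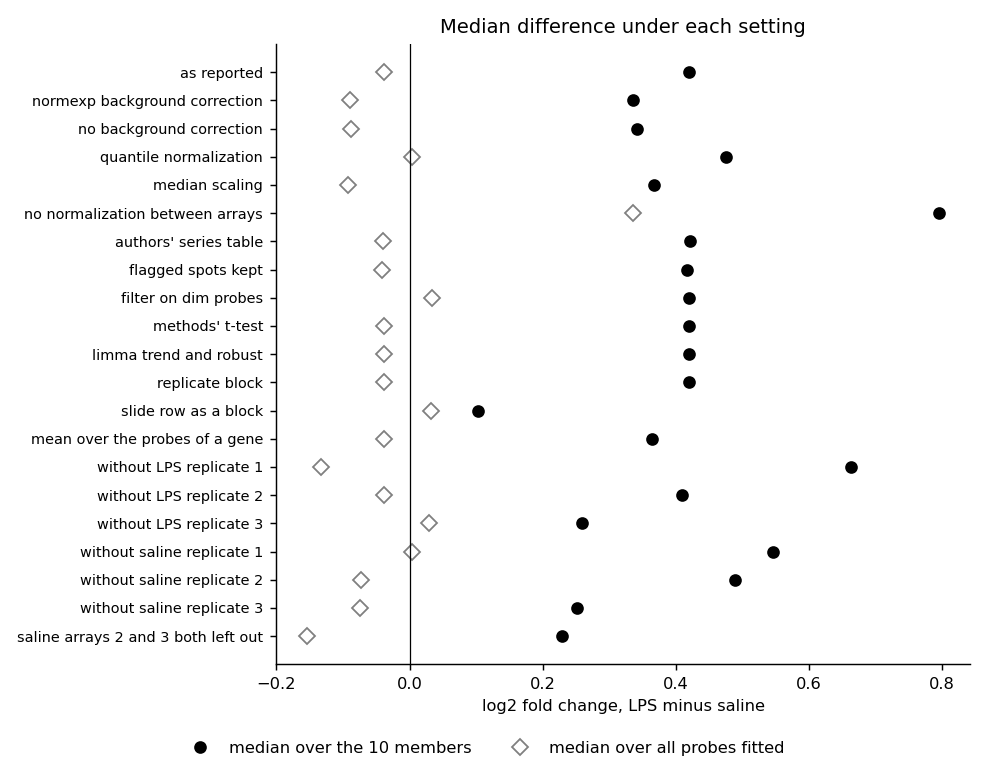
Median log2 fold change of LPS over saline (horizontal axis) over the 10 smooth muscle genes (filled points) and over all probes fitted (open diamonds) under the reported processing and each of 20 alternatives (vertical axis). The filled points were to the right of 0 in every line, between 0.10 and 0.80, and at 0.42 as reported. The line labelled as the methods' t-test is the per-gene analysis of variance.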

How the data were processed

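RNA of whole ovaries from 3 LPS and 3 saline arrays was grouped by the labels. The authors deposited the spot intensity values and flags written by Agilent Feature Extraction 10.5.1.1, with background subtracted, and a series table whose intensity values equal them within 0.497%, without scaling between them. The processing notes name lumi without a role, the labels give biotin as the label where the methods give Cy3, and the build is not given in the sources used here. A series column of per-spot values was matched to each array by its name.

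Spots flagged as outliers were removed, log2 signals were averaged over the spots of a probe and the 75th percentile of each array was subtracted. Treatments were compared over 30367 probes by lmFit and eBayes of limma 3.58.1, run under R 4.3.3, with Benjamini-Hochberg adjustment, and the steps were tested on simulated data. A probe counted as well above background where all its unflagged spots did, and the brightest probe stood for a gene. RefSeq accessions gave GRCr8 symbols for 17998 probes, and 12369 stayed without one. Genes named were all members, a few defining markers, listed genes that met the 2-fold criterion and whose treatments did not overlap, and the 6 nearest profiles, of which 1 is not reported here. Other genes are said to be named after their values were seen. The members and lists were chosen with earlier results of these data known. Arrays with the same number deviated together, with correlations of 0.298, 0.215 and 0.254 for numbers 1, 2 and 3, which is the sole basis of the pairing. Over clear probes these were 0.477, 0.250 and 0.322. LPS array 2 also deviated with saline array 3, at 0.160, or 0.405 over clear probes. LPS array 3 did so with saline array 2, at 0.068, or 0.317 over clear probes, so that clear probes did not pair numbers 2 and 3 apart. Alternatives, 20 in all, covered background correction, scaling, dim and flagged spots, the test, blocks, the choice of probe and arrays left out. Array number and signal over background limit the precision.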

Additional observations from a re-analysis of the deposited data

How the results depend on the processing

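With 3 arrays per treatment the 95% intervals of 9 of the 10 genes included 0. Lmod1 was too dim on the saline arrays for a fold, and its fitted difference is no measure of size. The count of smooth muscle genes past 2-fold at an unadjusted p was 1 as reported and 2 without normalization between arrays. It was 0 with normexp or no background correction, with quantile normalization and with the per-gene analysis of variance. It was also 0 with the slide row as a block and with the mean over the probes of a gene. It ranged from 0 to 2 when 1 array was left out, being 2 without LPS array 1 and 0 without LPS array 2, LPS array 3 or saline array 3. The count of genes with groups that did not overlap, 1 as reported, was 0 with normexp or no background correction, quantile normalization, median scaling and the mean over probes, and ranged from 1 to 5 when 1 array was left out, with 5 without LPS array 1, where 43.4% of all probes did not overlap, and 3 without saline array 1, where 40.9% did not. Without saline arrays 2 and 3 together, an alternative added after the data were seen in which the lone saline array is assumed to vary like the others, it was 4, beside 55.4% of all probes, of which Acta2, Des and Smtn were lower after LPS. The count of the 69 other contractile genes past 2-fold, 0 as reported, was 2 without normalization, 2 with the slide row as a block, 2 without saline arrays 2 and 3, and from 0 to 2 when 1 array was left out, with 2 without saline array 1 and 1 without LPS array 2 or saline array 3. The count past an adjusted p was 0 under all 20 alternatives, and the median kept its side of 0 in all of them, from 0.25 to 0.66 when 1 array was left out. With the replicate block the count stayed at 1, and the block changed no call of a smooth muscle gene. The median of 0.42 could not move there, since each block held 1 array of each treatment. Nor could it where only the test was changed or where dim probes were filtered.

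Single genes turned the other way as follows, and the cause was not tested. Acta2 was at -0.034 without saline array 3 (from -0.034 to 0.55 over the arrays left out) and at -0.20 without saline arrays 2 and 3, where Des was at -0.11. The slide row as a block leaves LPS array 1 as the only LPS array compared with the saline mean. With it Myh11 was at -0.32, Cnn1 at -0.059, Myl9 at -0.35, Tpm2 at -0.22 and Srf at -0.13. Without background correction Lmod1 was at -0.019 and Myocd at -0.030. Smtn was at -0.025 with normexp, -0.017 without background correction, -0.028 with median scaling, -0.26 without saline arrays 2 and 3, and from -0.11 to 0.17 over the arrays left out, being -0.042 without LPS array 1. Srf was at -0.016 with median scaling and from -0.033 to 0.12 over the arrays left out. Over all probes the calls were 186 higher of 513 as reported, 2 of 283 with normexp and 0 of 211 without background correction. They were 1003 of 1230 without normalization and 100 of 148 with the per-gene analysis of variance. Counts over all probes with the slide row as a block are left out, since that fit compares only LPS array 1 with saline. Apart from that block, the count past an adjusted p was 290 without saline array 1 and 0 otherwise.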
